A study of Mus musculus with 8 samples.

Results

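H19, Igf2, Afp, Gpc3, Ly6d and Tff3 are genes that the fetal liver, liver tumours or epithelia outside the liver express strongly and that the adult liver mostly keeps low. Their levels are described here in livers with metabolic dysfunction-associated steatohepatitis (MASH). The 6 genes were named with earlier results of these libraries in view and were located by their Ensembl identifiers, 6 of the 52636 genes counted. All 6 passed the filter on low counts, which kept 15248 genes. The members were chosen on measured values of the same contrast, the levels in AAV8-AGXT against AAV8-GFP mice, so their differences between the groups are given as a description, without a test.

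Livers came from 8 male C57BL/6J mice with no engineered allele, 1 library per mouse, and each group held 4 mice. The mice named 303, 311, 314 and 315 had received AAV8-GFP and those named 308, 309, 316 and 319 had received AAV8-AGXT. Both adeno-associated viruses were injected into the peritoneum at 7 weeks of age and used the TBG promoter, which is active in hepatocytes, to express GFP or human AGXT, the enzyme that converts glyoxylate to glycine. Every mouse then ate the MASH diet, which is rich in fat, fructose and cholesterol, from 8 weeks of age for 24 weeks, so neither group shows a liver without the diet or without the virus. The contrast asks how expression of AGXT in hepatocytes differs from that of GFP in livers under this diet.

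H19 is a long non-coding RNA transcribed from the maternal chromosome, and Igf2 next to it encodes a fetal growth factor transcribed from the paternal one. Both are abundant in the fetal liver and decline after birth. Afp encodes alpha-fetoprotein, the fetal relative of albumin, and Gpc3 encodes a heparan sulphate proteoglycan anchored to the cell surface. Both serve as markers of hepatocellular carcinoma. In the adult mouse liver the factor Zhx2 holds Afp, H19 and Gpc3 low, and Zbtb20 represses Afp. Ly6d encodes a small membrane-anchored protein of the Ly6 family known from keratinocytes and lymphoid progenitors of the B lineage, and Tff3 encodes a trefoil peptide that mucus-secreting epithelia release.

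The H19 transcript holds the hairpin of miR-675, so the mature sequences are shown first, from RefSeq on GRCm38.p6, as the product by which H19 is often studied. The capitals mark the seed, bases 2 to 8.
mmu-miR-675-5p: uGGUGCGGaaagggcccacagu
mmu-miR-675-3p: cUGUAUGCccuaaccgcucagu
The 5p arm lies at chr7:142577112-142577133 and the 3p arm at chr7:142577078-142577099, both on the minus strand. Each seed occurs in no other of the 1738 mature mouse miRNAs of that table. The 84-base hairpin lies within 3 of the 7 annotated H19 transcripts. The row of its gene Mir675 was at 0 counts in all 8 mice, but these libraries were made from polyadenylated RNA and do not measure mature miRNAs.

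For Afp, the stretch before the annotated start is shown, since regulators of this gene are counted further down, without marks for their sites. It covers the 100 bases before the start in GENCODE M21, at chr5:90490637-90490736 on the plus strand (RefSeq, GRCm38.p6). The capitals mark TATAAA, the TATA box letters.
Afp: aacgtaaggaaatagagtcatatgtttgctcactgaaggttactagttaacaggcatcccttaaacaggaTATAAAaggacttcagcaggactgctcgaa
The TATA letters began 30 bases before the GENCODE start and 7 bases before the RefSeq start, which lies 23 bases upstream of it. The windows that follow are those around RefSeq starts. Among the 32851 windows of 300 bases in that table, searched on both strands, 13.6% held TATAAA. The Afp window had 3 CpG and a GC content of 40%. The window of Gpc3 had 30 CpG and a GC content of 70.7%, and it did not hold TATAAA, nor did the 4 windows of Igf2. The median over all windows was 7 CpG and a GC content of 52.7%.

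Counts on genes ran from 17095433 to 28780140 per mouse, 56.3% to 69.1% of the tallied pairs, with the lowest share in AAV8-AGXT mouse 308. Levels are CPM, the counts of a gene per 1000000 counts of its library scaled by the TMM factors of edgeR, which correct for differences in composition between libraries. The row of mouse Agxt, onto which read pairs of the human transgene may align in part, was at 163.8 ± 15.8 CPM with AAV8-GFP and 305.2 ± 98.3 CPM with AAV8-AGXT (SD, n = 4 each), with an adjusted p of 0.0489 by edgeR, and the groups did not overlap. It is therefore no clean check of the labels. The hepatocyte markers summed to between 37102 and 60459 CPM in every library, so the defining markers of hepatocytes were present.

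At an adjusted p under 0.05, edgeR called 374 genes higher in AAV8-AGXT mice, 2.45% of those tested, and 290 genes lower, 1.90%. Ly6d was the single member among the 290. At an unadjusted p under 0.05, edgeR had 2060 of the 15248 tested genes higher and 1928 lower in AAV8-AGXT mice. These are the background for such counts in the lists below. DESeq2 called 2 members, H19 and Ly6d. Of the 16749 genes to which that tool gave an adjusted p, it called 6.11% lower and 6.29% higher. DESeq2 was run without edgeR's filter on low counts, so its calls in the lists below can fall on genes that edgeR did not test. Ly6d was also the single member whose groups did not overlap, beside 7.63% of tested genes that were lower and 8.93% that were higher in AAV8-AGXT mice without overlap. Since the choice of members used this contrast, nothing is read from these counts. In bulk liver RNA, fewer cells of a type and less RNA per cell cannot be told apart for any gene described here.

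Per kilobase of exon, Ly6d stood far above the 5 other members. Ly6d stood at 404.2 ± 48.4 CPM per kb in AAV8-GFP and 144.4 ± 66.4 CPM per kb in AAV8-AGXT mice (SD, n = 4 each), above 99.3% and 97.4% of the tested genes, so it was not a scarce transcript in these livers. H19, the highest of H19, Afp, Gpc3 and Igf2 in AAV8-GFP mice, lay above 22.7% of the tested genes. The order in AAV8-GFP mice was Ly6d, Tff3 with a mean of 2.45 CPM per kb, H19 with 0.886, Afp with 0.728, Gpc3 with 0.282 and Igf2 with 0.104. The ranges over 4 mice did not overlap between Ly6d and Tff3, nor between Afp and Gpc3, but they did between Tff3 and H19, H19 and Afp, and Gpc3 and Igf2. In AAV8-AGXT mice the means were 6.25 CPM per kb for Tff3, 0.659 for Afp, 0.176 for H19, 0.132 for Gpc3 and 0.0922 for Igf2. There every mouse had less H19 than the lowest level of Afp, and the ranges of H19, Gpc3 and Igf2 overlapped.

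**Figure D1:**
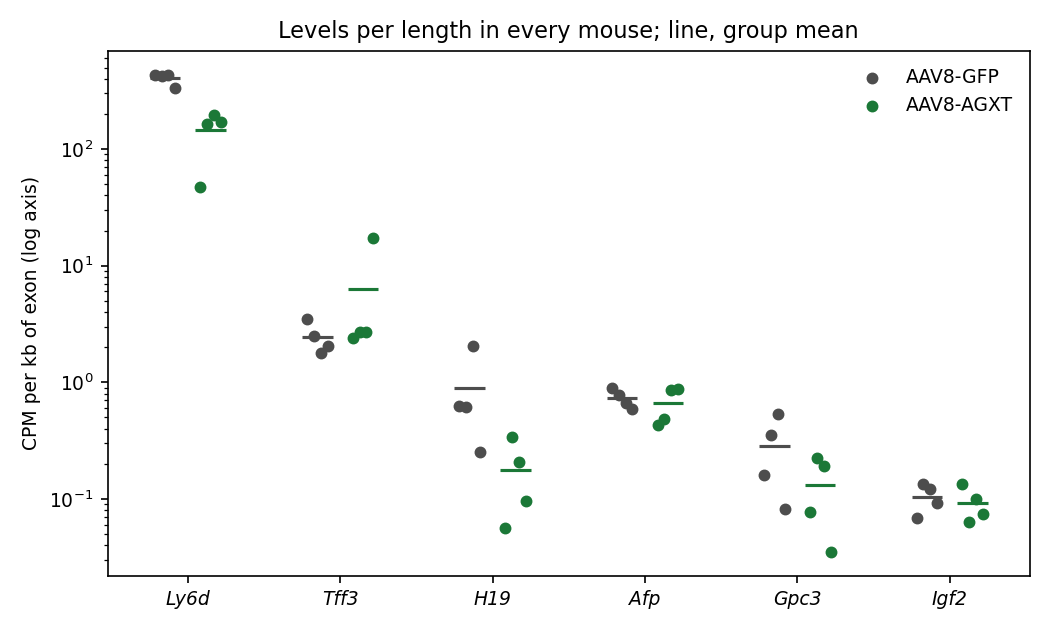
CPM per kb of exon (log axis) of the 6 genes, ordered by their mean in AAV8-GFP mice, with 1 point per mouse and a line at each group mean. Ly6d lies above every other gene in both groups, at means of 404.2 and 144.4 CPM per kb, and Igf2 lies lowest in both, at 0.104 and 0.0922.

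H19 (ENSMUSG00000000031, chr7:142575529-142578143, minus strand, in GRCm38 as are all positions here) was scarce, with a lower mean in AAV8-AGXT mice and wide spread in both groups. The 4 AAV8-GFP mice had 1.52, 1.5, 5.07 and 0.618 CPM (mice 303, 311, 314 and 315), from 39, 49, 110 and 14 counts. The 4 AAV8-AGXT mice had 0.138, 0.841, 0.514 and 0.236 CPM (mice 308, 309, 316 and 319), from 2, 14, 10 and 5 counts. Mouse 314 stood far above all others, and mouse 309 of the AAV8-AGXT group lay above mouse 315 of the AAV8-GFP group, so the groups overlapped. The 2 counts of mouse 308 allow between 0.0167 and 0.499 CPM (95% Poisson interval, counting error only). The group means were 2.18 ± 1.98 and 0.432 ± 0.316 CPM (SD, n = 4 each), with a log2 fold change of -2.30 (SE 0.71).

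The H19 difference leaned on mouse 314: without it the log2 fold change was -1.5, and leaving out any other mouse gave -2.82 to -2.06. The spread was not that of counting alone. The coefficient of variation among AAV8-GFP mice was 90.7%, beside 13.7% that counting at the mean depth would give, and among AAV8-AGXT mice it was 73.0% beside 35.9%. Of the 2460 exonic bases of H19, 225 are shared with Mir675 and with 2 short genes on the opposite strand, all 3 of them at 0 counts in every mouse.

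**Figure D2:**
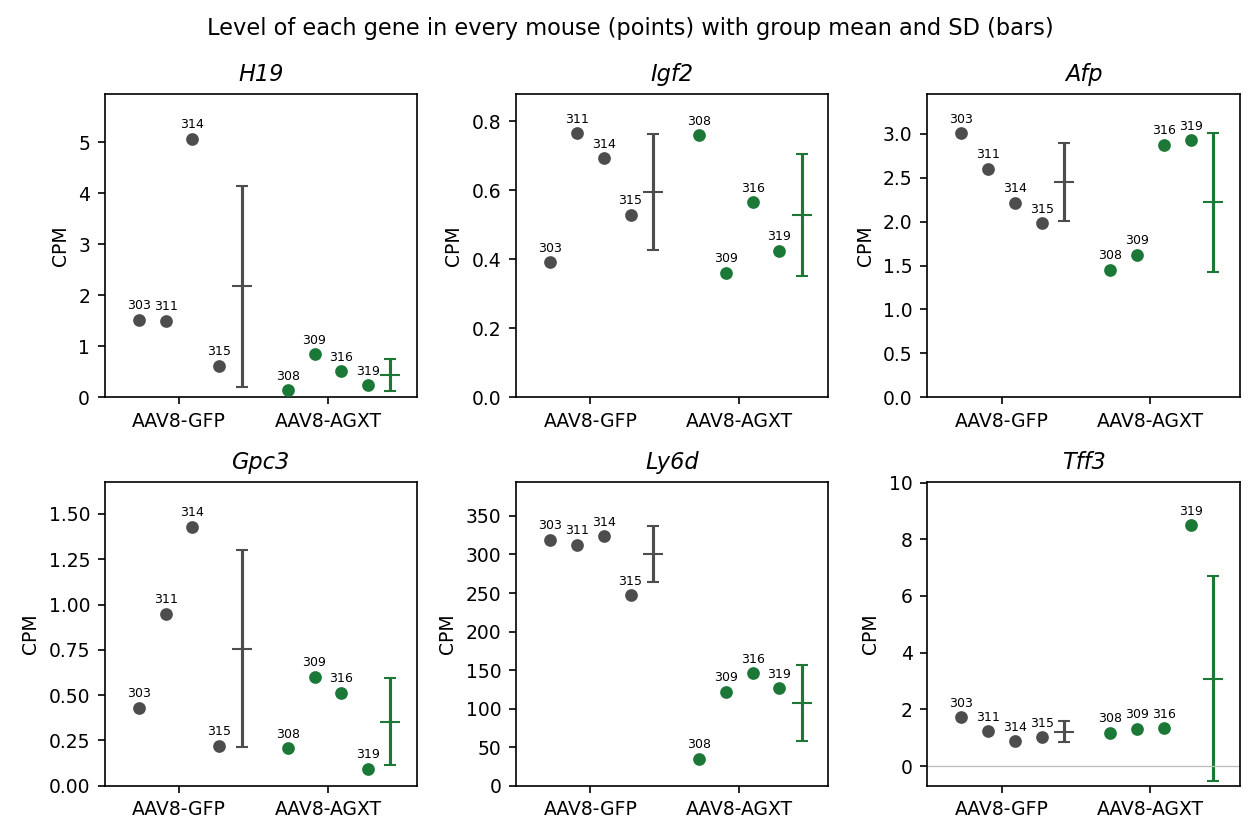
CPM (linear axes, 1 panel per gene) of the 6 genes in each mouse, labelled by mouse, with the group mean and SD beside the points (n = 4). Ly6d is the panel in which every AAV8-AGXT mouse lies below every AAV8-GFP mouse, mouse 314 stands apart for H19 at 5.07 CPM, and mouse 319 for Tff3 at 8.49 CPM.

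Igf2 (ENSMUSG00000048583, chr7:142650766-142666816, minus strand) was scarce in both groups. AAV8-GFP mice 303, 311, 314 and 315 had 0.391, 0.765, 0.692 and 0.529 CPM. AAV8-AGXT mice 308, 309, 316 and 319 had 0.759, 0.361, 0.565 and 0.425 CPM. No mouse stood apart, the groups interleaved, and the counts ran from 6 to 25 per library. The means were 0.594 ± 0.168 and 0.527 ± 0.177 CPM (SD, n = 4 each) and the log2 fold change was -0.19 (SE 0.36). The observed coefficient of variation was 28.3% in AAV8-GFP and 33.5% in AAV8-AGXT mice, beside 25.4% and 32.9% from counting alone, so a difference of this size was not detectable at this depth. Of its 5723 exonic bases, 3694 are shared with Igf2os on the opposite strand and with Gm49394, and since the strand setting of the counting is not stated, its value is uncertain. Igf2os itself had 0 to 3 counts per mouse.

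The neighbours H19 and Igf2, 72.6 kb apart, gave a correlation that says little, since the spread of Igf2 was about that of counting. The Pearson correlation of their log2 CPM over the 8 mice was 0.094, and -0.11 with the group means removed. Mrpl23, a mitochondrial ribosomal protein gene 34.8 kb on the other side of H19, had a log2 fold change of -0.18 (SE 0.15, adjusted p = 0.482 by edgeR).

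Afp (ENSMUSG00000054932, chr5:90490737-90508907, plus strand) was detected in every mouse at a low level. AAV8-GFP mice 303, 311, 314 and 315 had 3.01, 2.60, 2.21 and 1.99 CPM. AAV8-AGXT mice 308, 309, 316 and 319 had 1.45, 1.62, 2.88 and 2.93 CPM. Mice 308 and 309 lay below every AAV8-GFP mouse, mice 316 and 319 lay above all of them but mouse 303, and the groups overlapped. The means were 2.45 ± 0.449 and 2.22 ± 0.791 CPM (SD, n = 4 each), and the log2 fold change was -0.13 (SE 0.28). Without mouse 308 it was 0.0027, and the other fits that left out a mouse stayed between -0.29 and -0.021.

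Afp lies beside its relatives Alb and Afm on chromosome 5, which encode albumin and afamin. Alb, 14.1 kb away, was at 29998 ± 4651 CPM with AAV8-GFP and 37995 ± 4545 CPM with AAV8-AGXT (SD, n = 4 each), with a log2 fold change of 0.34 (adjusted p = 0.283 by edgeR). Per kilobase, Afp was at 0.00568% of the level of Alb in AAV8-GFP and 0.00406% in AAV8-AGXT mice. Afm had a log2 fold change of 0.36 (adjusted p = 0.255 by edgeR).

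Gpc3 (ENSMUSG00000055653, chrX:52272426-52613950, minus strand) had a lower mean in AAV8-AGXT mice with overlapping groups. AAV8-GFP mice 303, 311, 314 and 315 had 0.430, 0.949, 1.43 and 0.221 CPM, from 11, 31, 31 and 5 counts. AAV8-AGXT mice 308, 309, 316 and 319 had 0.207, 0.601, 0.514 and 0.0944 CPM, from 3, 10, 10 and 2 counts. Mice 311 and 314 were the highest, while mouse 315 of the same group lay at the level of mouse 308. The means were 0.757 ± 0.543 and 0.354 ± 0.242 CPM (SD, n = 4 each), and the log2 fold change was -1.09 (SE 0.66). It was -0.65 without mouse 314 and -0.74 without mouse 319. Gpc4, a glypican gene 107.2 kb away on chromosome X, had a log2 fold change of 0.17 (adjusted p = 0.408 by edgeR).

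H19 and Gpc3 were the members most alike over the mice. The Pearson correlation of their log2 CPM was 0.865 over the 8 mice, with a Spearman rho of 0.786, and 0.870 with the group means removed. Without mice 308 and 314, the farthest from the median of H19, Pearson's r was 0.789 (n = 6). The points are libraries that share a group and a depth, and both genes rest on few counts, so this is a description. H19 and Ly6d correlated at 0.811 over the 8 mice and at 0.545 with the group means removed.

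**Figure D3:**
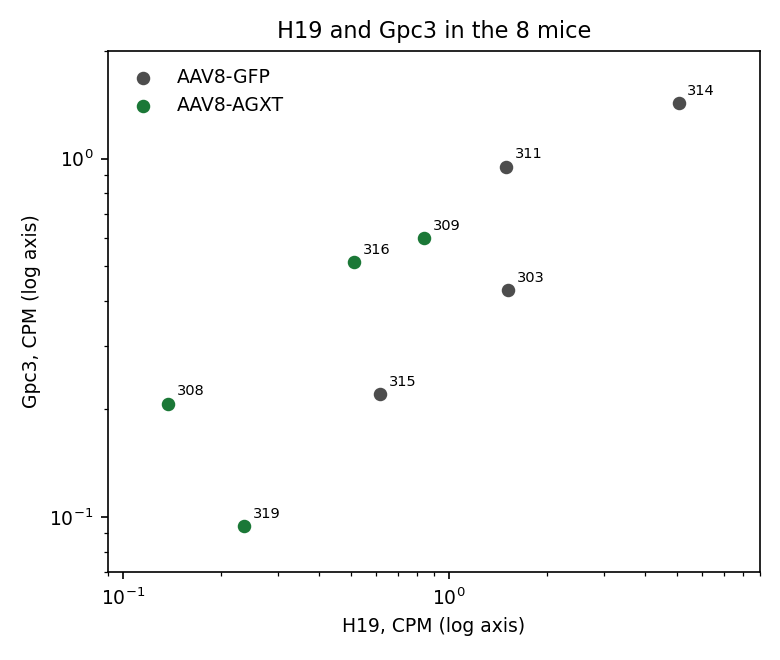
H19 against Gpc3, both in CPM on log axes, with 1 point per mouse, labelled by mouse and coloured by group. Mouse 314 is highest for both genes at 5.07 and 1.43 CPM, mice 308 and 319 are lowest for both, and the groups overlap on each axis.

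Ly6d (ENSMUSG00000034634, chr15:74762056-74763620, minus strand) was the abundant member, and all 4 AAV8-AGXT mice lay below all 4 AAV8-GFP mice. AAV8-GFP mice 303, 311, 314 and 315 had 319.1, 312.9, 323.8 and 247.1 CPM, from 5603 to 10221 counts. AAV8-AGXT mice 308, 309, 316 and 319 had 35.1, 122, 146 and 126.8 CPM, from 508 to 2842 counts. Within the groups, mouse 315 lay below the 3 others of AAV8-GFP, and mouse 308 lay far below the 3 others of AAV8-AGXT. The means were 300.7 ± 36.0 and 107.5 ± 49.4 CPM (SD, n = 4 each), and the log2 fold change was -1.48 (SE 0.35), a 2.8-fold lower level. Left-out fits ranged from -1.21, without mouse 308, to -1.66, without mouse 316.

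Counting error was a small share of the spread of Ly6d, whose coefficient of variation was 12.0% in AAV8-GFP and 45.9% in AAV8-AGXT mice, beside 1.14% and 2.23% from counting. Its call in the edgeR fit, from which nothing is read since Ly6d was chosen on this contrast, lay close to the threshold. The call was kept in 1 of 8 fits that left out a mouse and in 3 of 7 other ways of testing the 8 mice. In every mouse Ly6d outweighed the summed CPM of the 5 other members, by 9.41 to 56.6 times.

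The listed markers of squamous epithelium and of B and plasma cells, types that express Ly6d in other tissues, were scarce in these libraries. The squamous epithelium list of 8 genes summed to 0.0391 to 0.221 CPM with AAV8-GFP and 0.0472 to 0.180 CPM with AAV8-AGXT. Krt14, Krt13, Sprr3 and Krt6a were at 0 in all mice. That list leaves out Sprr1a, a gene of cornified envelopes counted below with the cholangiocyte and ductular markers. Sprr1a ran from 6.09 to 12.4 CPM with AAV8-GFP and from 0 to 1.39 CPM with AAV8-AGXT, lower in the same group as Ly6d. Its link to the level of Ly6d was not tested. The 8 markers of B and plasma cells summed to 7.23 to 14.5 CPM with AAV8-GFP and 6.31 to 12.5 CPM with AAV8-AGXT. Per kilobase, Ly6d stood 279.5 times above Cd79a, a component of the B cell receptor, in AAV8-GFP and 143.1 times above it in AAV8-AGXT mice.

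The nearest tested genes on either side of Ly6d on chromosome 15 belong to the same family. Lynx1, 9.01 kb away, had a log2 fold change of -0.71 (SE 0.25, adjusted p = 0.116 by edgeR), and its groups did not overlap. Ly6e, 191.4 kb away, had a log2 fold change of -0.59 (SE 0.28, adjusted p = 0.212 by edgeR). Neither passed the test.

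Tff3 (ENSMUSG00000024029, chr17:31125306-31129646, minus strand) was scarce in 7 of the 8 mice and high in mouse 319. AAV8-GFP mice 303, 311, 314 and 315 had 1.72, 1.22, 0.876 and 1.01 CPM. AAV8-AGXT mice 308, 309, 316 and 319 had 1.17, 1.32, 1.34 and 8.49 CPM, the last from 180 counts. Mouse 319 stood 4.94 times above the next mouse, which was an AAV8-GFP mouse, and the 3 others of its group lay within the range of the controls. The means were 1.21 ± 0.369 and 3.08 ± 3.61 CPM (SD, n = 4 each). The log2 fold change was 1.36 (SE 0.65) with all mice and 0.08 without mouse 319, so the difference in means was that of 1 library.

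Mouse 319 also stood apart for other genes. In 39 genes, counted by a rule set after the values were seen, 1 mouse had at least 4 times the CPM of any other and at least 5 CPM. Mouse 319 was that mouse for 7 of them, and the other mice for 1 to 9 each. The 7 included Saa1 and Saa2, the acute-phase serum amyloid genes, at 3221 CPM and 2198 CPM beside at most 699.3 CPM and 430.7 CPM elsewhere. Marco, a macrophage scavenger receptor, was at 156.2 CPM beside at most 12.4 CPM. The part of these in the level of Tff3 was not tested. The neighbour Abcg1, a sterol exporter 7.32 kb from Tff3, had a log2 fold change of -0.61 (adjusted p = 0.252 by edgeR).

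**Figure D4:**
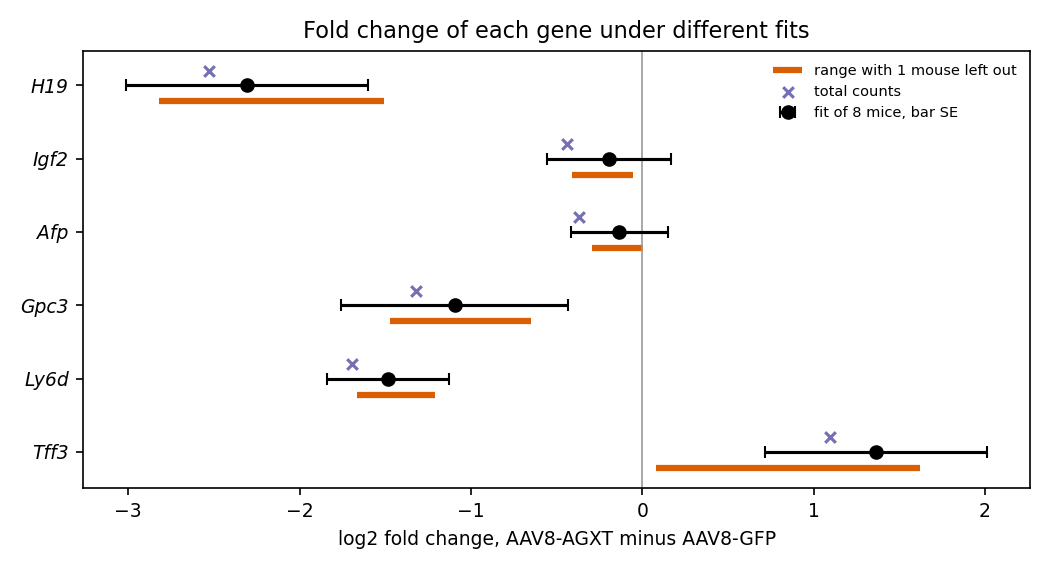
Log2 fold change (AAV8-AGXT minus AAV8-GFP) of the 6 genes from the edgeR fit of 8 mice with its SE, from the same fit on total counts (crosses), and as the range over the 8 fits that left out 1 mouse (orange). Tff3 runs from 0.08 to 1.62, the range of Afp touches 0, and H19, Gpc3, Ly6d and Igf2 keep their sign.

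Among the genes around the imprinted domain, 15 of 22 were tested and edgeR called 0 of them, with 1 higher and 5 lower at an unadjusted p under 0.05. DESeq2, fitted to 21 genes of the list, called 1 higher and 2 lower. The median log2 fold change of the 15 was -0.16, beside 0.018 over all tested genes. Dlk1, a fetal surface protein of another imprinted cluster, was too scarce to be tested, at 0.276 ± 0.13 and 0.220 ± 0.203 CPM (SD, n = 4 each). Meg3, the maternal non-coding RNA of that cluster, had a log2 fold change of 0.36 (adjusted p = 0.556), and Cdkn1c, an imprinted inhibitor of the cell cycle, one of -0.17 (adjusted p = 0.789), both by edgeR.

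Of the IGF ligands, receptors and binding proteins other than Igf2, 13 of 14 were tested. By edgeR 1 was called, with 6 higher and 1 lower at an unadjusted p under 0.05, and DESeq2 called 4 higher and 1 lower. Igfals, which encodes the subunit that stabilises IGF in blood, was higher in AAV8-AGXT mice, from 46.8 ± 5.66 to 78.7 ± 16.4 CPM (SD, n = 4 each), with a log2 fold change of 0.75 (adjusted p = 0.0374 by edgeR). The list's median was 0.28. Igf1, the growth factor the adult liver secretes, had a log2 fold change of 0.33 (adjusted p = 0.141), and its receptor Igf1r one of -0.31 (adjusted p = 0.499). Igf2r, which clears IGF2, had -0.03 and Insr, the insulin receptor, 0.37, and neither passed the test by edgeR (adjusted p = 0.897 and 0.0796). Igfbp1 and Igfbp2, secreted proteins that bind IGF, had log2 fold changes of -0.02 and 0.60 (adjusted p = 0.977 and 0.119 by edgeR).

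The RNA-binding proteins that act on Igf2 mRNA in the fetus were at or near 0. Igf2bp1 had 0 counts in AAV8-GFP and 1 count in AAV8-AGXT mice, Igf2bp3 had 19 counts in each group, and Lin28b, which blocks maturation of let-7, had 0 in all mice. Igf2bp2, the form that adult tissues express, was at 6.59 ± 0.3 CPM with AAV8-GFP and 3.78 ± 1.35 CPM with AAV8-AGXT (SD, n = 4 each), with a log2 fold change of -0.80 (adjusted p = 0.0907 by edgeR). It did not pass the test, although its groups did not overlap. Of the 4 genes tested in this list, edgeR called 0, with 1 in each direction at an unadjusted p under 0.05. DESeq2, fitted to 8 genes of the list, called 1 in each direction.

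All 18 regulators of Afp were tested, and their median log2 fold change was 0.30. With edgeR 5 were higher and 2 lower at an unadjusted p under 0.05, and DESeq2 called 3 higher and 1 lower. Cebpa, a liver-enriched activator, was higher in AAV8-AGXT mice at 499.4 ± 39.2 CPM beside 352.6 ± 16.8 CPM (SD, n = 4 each; log2 fold change 0.50, adjusted p = 0.0429 by edgeR). Trp53, which represses Afp, was lower at 32.2 ± 2.95 CPM beside 42.6 ± 1.44 CPM (log2 fold change -0.40, adjusted p = 0.0451 by edgeR). The repressors Zhx2 and Zbtb20 had log2 fold changes of 0.17 (SE 0.14) and 0.16 (SE 0.15), and the activator Nr5a2 had 0.48 (SE 0.14). These 3 did not pass the test by edgeR, with adjusted p of 0.482, 0.529 and 0.0795. Zhx2 and Zbtb20 turned negative under 1 of 15 alternatives each, to -0.07 and -0.09.

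Of 16 genes of the glypican and heparan sulphate list, 14 were tested, with a median log2 fold change of 0.15. On total counts it became -0.08, or 0.14 with the median of all genes taken off. With edgeR 4 were higher and 3 lower at an unadjusted p under 0.05, and DESeq2 called 1 higher. Gpc1, a glypican of the same protein family as Gpc3, was the gene called, higher in AAV8-AGXT mice, at 22.9 ± 8.25 CPM with AAV8-GFP and 62.1 ± 15.1 CPM with AAV8-AGXT (SD, n = 4 each; log2 fold change 1.44, adjusted p = 0.0309 by edgeR). Of its exonic bases, 977 are shared with Ankmy1 on the opposite strand, so its value is uncertain where strand was not used. Gpc6 had a log2 fold change of -0.80 (adjusted p = 0.164) and Sulf2, which edits heparan sulphate outside the cell, 0.14 (adjusted p = 0.594), both by edgeR.

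In the Ly6 and uPAR family, 9 of 26 genes were tested beside Ly6d, and edgeR called 0, with 3 lower at an unadjusted p under 0.05. DESeq2, fitted to 22 genes of the list, called 2 lower. The median log2 fold change by edgeR was -0.53. Ly6a, a marker of progenitors and activated lymphocytes, was at 37.2 ± 11.0 CPM with AAV8-GFP and 20.9 ± 5.79 CPM with AAV8-AGXT (SD, n = 4 each), with a log2 fold change of -0.83 (adjusted p = 0.0744 by edgeR). Ly6c1, of monocytes and endothelium, had -0.18 (adjusted p = 0.740 by edgeR). Slurp1, Lypd2 and Lypd8 were at 0 in all mice.

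The relatives and partners of Tff3 were mostly too scarce to be tested, 4 of 16. Tff1 had 4 counts in AAV8-GFP and 2 in AAV8-AGXT mice, and Tff2 had 48 and 17 counts. Agr2, the chaperone of mucus-secreting cells, was at 0 in all mice. By edgeR 0 of the 4 were called, with 1 higher and 2 lower at an unadjusted p under 0.05. DESeq2, fitted to 13 genes of the list, called 1 higher and 2 lower. Of the gut epithelium markers 2 of 10 were tested, and Cdx2 and Reg3g were at 0 in all mice. Lgals4, a galectin, made up 95.8% to 99.4% of the summed CPM of the 10. The other 9 summed to 1.06 to 3.21 CPM with AAV8-GFP and 0.519 to 1.56 CPM with AAV8-AGXT, with the lowest sum in mouse 319.

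Other genes known as markers of the fetal liver or of liver cancer, a list chosen with earlier results known, were tested in 19 of 22 cases. Of the 19, 18 had negative log2 fold changes, beside 7274 of all 15248 tested genes. The median of the 19 was -1.25. edgeR called 3 of the 19 lower and 0 higher, with 15 lower and 0 higher at an unadjusted p under 0.05. DESeq2, fitted to all 22, called 9 lower. Mdk, which encodes the heparin-binding growth factor midkine, was at 6.22 ± 2.07 CPM with AAV8-GFP and 1.85 ± 0.366 CPM with AAV8-AGXT (SD, n = 4 each; log2 fold change -1.75, adjusted p = 0.0276 by edgeR). Anxa2, of membrane trafficking, had a log2 fold change of -1.29 (adjusted p = 0.0294), and Cd63, of late endosomes, one of -1.61 (adjusted p = 0.0455). Epcam and Cd24a, surface markers of biliary and progenitor cells, had -1.34 and -1.25 and did not pass the test by edgeR (adjusted p = 0.111 and 0.135).

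Of the 18 cholangiocyte and ductular markers 17 were tested, and edgeR called 3 lower, with a median log2 fold change of -1.07. It had 14 lower and 1 higher at an unadjusted p under 0.05, and DESeq2 called 10 lower. None of the 18 was at 0 in all mice. The 18 summed to 1990 to 2371 CPM with AAV8-GFP and 1059 to 1380 CPM with AAV8-AGXT, without overlap, but Krt8 and Krt18, keratins that hepatocytes also express, made up 64.0% to 88.9% of the sum. The other 16 summed to 311.1 to 783.6 CPM with AAV8-GFP and 117.1 to 405.5 CPM with AAV8-AGXT, and the groups overlapped. Most of that was Spp1: the 15 without it summed to 110 to 173.1 CPM with AAV8-GFP and 55.6 to 166.3 CPM with AAV8-AGXT, also with overlap. Elf3, an epithelial transcription factor, was at 7.45 ± 2.24 CPM with AAV8-GFP and 1.29 ± 0.692 CPM with AAV8-AGXT (SD, n = 4 each; log2 fold change -2.53, adjusted p = 0.0207). Sprr1a, of cornified envelopes, had -3.19 (adjusted p = 0.0303) and Krt8 -0.71 (adjusted p = 0.0489). Krt7, Krt19, Sox9 and Spp1 had log2 fold changes of -1.36, -1.13, -0.91 and -1.62 and did not pass the test by edgeR (adjusted p from 0.0704 to 0.132). Onecut1 and Krt23 had positive log2 fold changes of 2.66 and 0.76, and they did not pass the test either (adjusted p = 0.126 and 0.314 by edgeR). For Onecut1 the AAV8-AGXT mice ran from 1.38 to 57.2 CPM, and mouse 309 had at least 4 times the level of any other mouse. Its difference in means was thus largely that of 1 library. The part of these cells in the level of Ly6d was not tested.

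**Figure D5:**
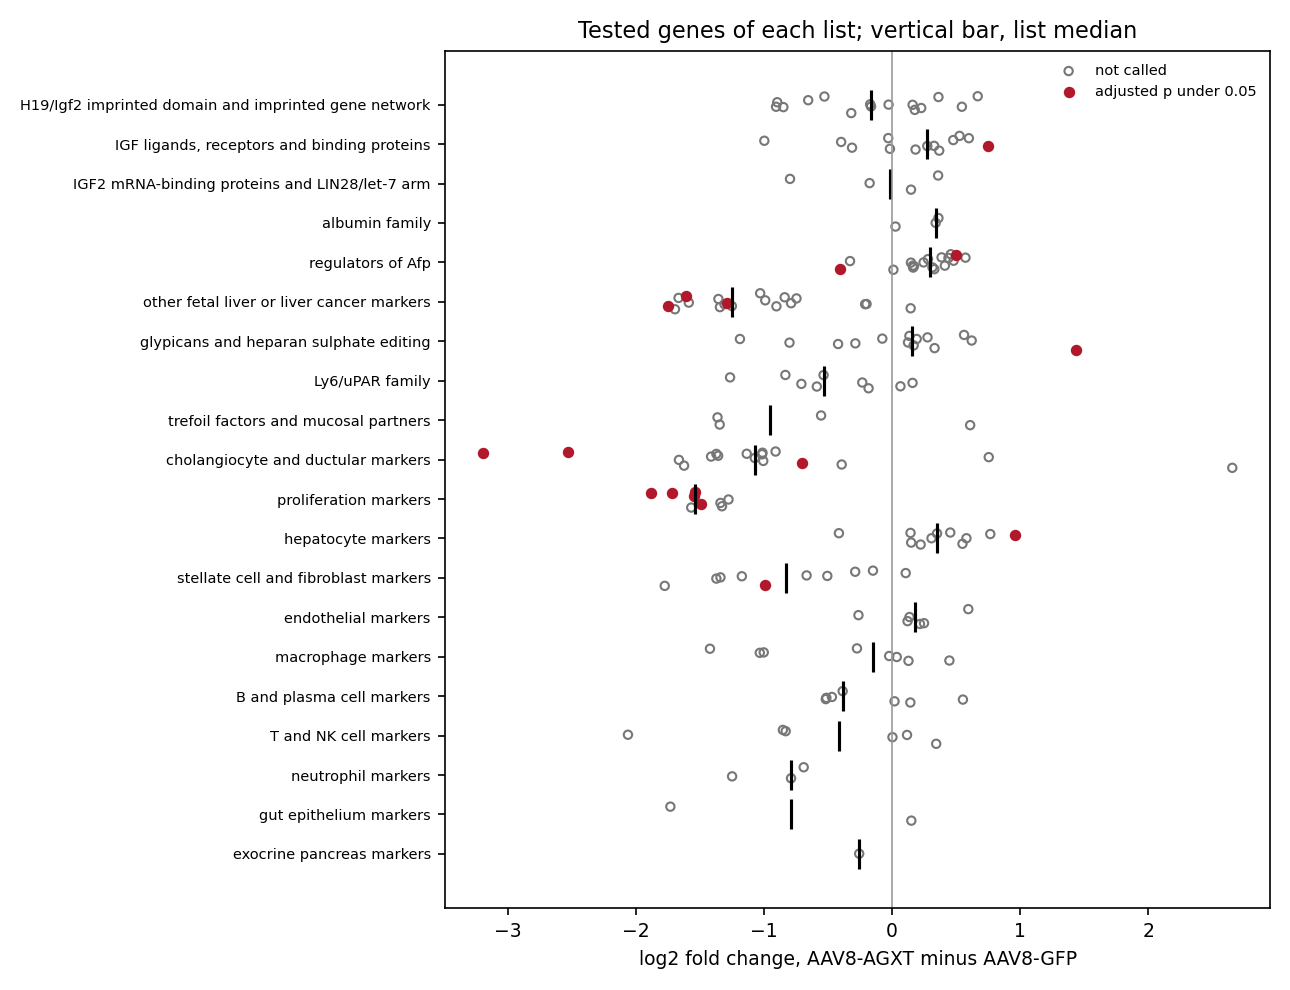
Log2 fold change (AAV8-AGXT minus AAV8-GFP) of every tested gene in each list, 1 point per gene, with genes at an adjusted p under 0.05 filled in red and a bar at the list median. Proliferation markers have a median of -1.54 with 5 of 9 called, other fetal or cancer markers one of -1.25 with 3 of 19, and the imprinted genes one of -0.16 with 0 of 15.

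Proliferation markers were lower as well, with 5 of 9 tested genes called and all 9 without overlap between the groups. Without mouse 311 edgeR called 0 of 9, with 9 lower at an unadjusted p under 0.05. Without mouse 314, and without mouse 319, it called 1. With all mice edgeR had 9 lower at an unadjusted p under 0.05, and DESeq2 called 9 of the 10 genes it was fitted to. Cdk1, the kinase that starts mitosis, was at 4.83 ± 0.346 CPM with AAV8-GFP and 1.46 ± 0.199 CPM with AAV8-AGXT (SD, n = 4 each; log2 fold change -1.72, adjusted p = 0.00992 by edgeR). Plk1, Mki67 and Ccnb1, a mitotic kinase, a nuclear antigen of cycling cells and a mitotic cyclin, had log2 fold changes of -1.55, -1.49 and -1.88 (adjusted p = 0.0276, 0.0415 and 0.0462). The 10 markers summed to 28.5 to 49.98 CPM with AAV8-GFP and 6.35 to 16.6 CPM with AAV8-AGXT.

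Cps1, an enzyme of the urea cycle, was the hepatocyte marker called, with a log2 fold change of 0.96 (adjusted p = 0.0279), and the list's median was 0.35. Of the 11 tested hepatocyte markers, 5 were higher at an unadjusted p under 0.05 by edgeR, and DESeq2 called 1 higher. Acta2, the smooth muscle actin of activated stellate cells, had -0.99 (adjusted p = 0.0427), and the 10 stellate and fibroblast markers summed to 583.6 to 1019 CPM with AAV8-GFP and 254.3 to 651.5 CPM with AAV8-AGXT. Of these 10, 7 were lower at an unadjusted p under 0.05 by edgeR, and DESeq2 called 2 lower. Macrophage markers summed to 443.7 to 707.3 and 231.5 to 780.3 CPM, and 0 of 8 were called by edgeR, with 2 lower at an unadjusted p under 0.05 and 2 lower by DESeq2. In the endothelial, B and plasma cell, T and NK cell, neutrophil and exocrine pancreas lists edgeR called 0 genes. At an unadjusted p under 0.05 these lists held 1 gene, lower, in the T and NK cell list, which DESeq2 also called.

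All 16 named list genes that edgeR called lost the call without mouse 311, and 15 of 16, all but Cdk1, lost it without mouse 314 and without mouse 319. Leaving out any of the other 5 mice cost between 5 and 9 of the 16 their calls. Krt8, Ccnb1 and Acta2 were called in 0 of the 8 fits that left out a mouse, Igfals, Cebpa and Trp53 in 1 each, and none of the 16 in all 8. Their signs held in all 8 fits that left out a mouse.

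The genes most like each member over the 8 mice were found by Pearson correlation of log2 CPM among genes with a mean of at least 1 CPM, 3 per member. For H19 they were Ckap4 at 0.990, Prr15l at 0.977 and Ehd2 at 0.973. For Ly6d they were Rpusd1 at 0.993, Mab21l3 at 0.992 and Smox at 0.988. For Gpc3 they were Mlph at 0.985, Ccnd2 at 0.981 and Htra1 at 0.978. These nearest genes kept correlations of 0.943 or higher with the group means removed.

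For Igf2 the nearest were Sltm at 0.972, Thoc1 at 0.954 and Rpf2 at 0.924, which say little, since the spread of Igf2 was about that of counting. For Afp they were Eepd1 at 0.980, Myo9a at 0.964 and Igha at 0.961. For Tff3, whose pattern is mostly that of mouse 319, they were Slc41a1 at 0.935, Vav2 at 0.927 and Mvk at 0.923. The 3 were the highest of all genes searched over only 8 points, and no gene was the nearest of more than 1 member.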

How the data were processed

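Liver mRNA of 8 mice, 4 per group, was sequenced. The authors used Trimmomatic for trimming, HISAT2 for mapping to GRCm38 and HTSeq for counting on genes of Ensembl, and the deposited values are raw counts per gene, 1 file per mouse. Whether the counting used strand is not given in the sources used here. Between 30.9% and 43.7% of tallied pairs were not assigned to a gene, for any reason that HTSeq tallies, and were left out of library sizes. GENCODE M21 gave symbols and exon lengths for 52403 of the 52636 genes. Groups came from the sample titles. No sample was left out, and the labels name no batch.

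edgeR 4.0.16 in R 4.3.3 was used with filterByExpr, TMM factors, the quasi-likelihood test, a model of treatment alone, and adjustment of p by Benjamini-Hochberg over all 15248 tested genes. The common biological coefficient of variation was 23.3%, so for abundant genes the spread between mice, and not depth, set the precision. Log2 fold changes have a prior count of 0.125 and log2 CPM one of 2. The test was checked on simulated data with known changes. Alternatives were DESeq2 1.42.0, limma-voom (limma 3.58.1), DESeq2's size factors and total counts without a composition factor. Further ones were other filters on low counts, robust estimation, a prior count of 2 for the members, and each mouse left out. The authors used another version of DESeq2, and the paper reports fewer called genes in each direction than DESeq2 called here.

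The members and lists were chosen with earlier results of these data known. Named genes were the members, 36 relatives, regulators and markers given whatever their values (1 of them is not reported here), up to 4 called genes of smallest p per list, and the 3 genes most like each member. Genes named outside this rule (Mrpl23, Afm, Lynx1, Abcg1, Cd79a, the mouse 319 genes, Krt18, Krt23, Onecut1, Lgals4 and markers at 0) are neighbours or were chosen after their values were seen. A neighbour is the nearest tested gene on a side, so untested genes may lie between. Intervals cover counting error only.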

Additional observations from a re-analysis of the deposited data

Results flagged for a closer look

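Within groups of 4 mice, 12 groups (6 genes, 2 groups) were searched for a mouse whose gap to its nearest neighbour took up most of the group's range by Dixon's criterion, and 2 were found. Chance gives about 1 in 20. In AAV8-GFP mice, the Ly6d level of mouse 315, 247.1 CPM, lay below the other 3, which ran from 312.9 to 323.8 CPM. In AAV8-AGXT mice, the Tff3 level of mouse 319, 8.494 CPM, lay above the other 3, which ran from 1.17 to 1.34 CPM. The H19 level of mouse 314 and the Ly6d level of mouse 308 did not meet the criterion.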

How the results depend on the processing

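The counts of called genes depended on the method and on single mice. Genes called higher numbered 374 in the main analysis, 1054 with DESeq2 and 144 on total counts, and from 2 (without mouse 311) to 379 with 1 mouse left out. Genes called lower numbered 290, 1024 with DESeq2 and 857 on total counts, and from 0 to 325 with 1 mouse left out. The fit with 0 called lower was that of edgeR without mouse 311, where 1357 genes were lower at an unadjusted p under 0.05. Without mouse 314 the counts were 11 and 4, and without mouse 319 they were 12 and 2. Total counts moved the median of all genes by -0.24, from 0.018 to -0.22, and the share of calls that were higher from 56.3% to 14.4%. Tff3 ranged from 0.0806 to 1.62 with 1 mouse left out. Afp changed sign in 1 of 14 alternatives, and the other 5 members in 0. The medians of the glypican and endothelial lists turned negative on total counts, but were 0.14 and 0.17 with the median of all genes taken off. Of 15 alternatives, the median of the list of Igf2 mRNA-binding proteins changed sign in 5 and that of exocrine pancreas in 2. Those of the macrophage and gut epithelium lists changed sign in 1 each. Of the counts of called genes, 14 of 30 alternatives stayed within 1.5 times. For the other named genes, 629 of 642 values kept their sign, 527 their side of the threshold and 514 both. The cause was not tested. No paired analysis was possible because the groups share no replicate numbers. Depth limits Igf2, Gpc3 and H19, with 2 to 31 counts in most libraries.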
